A study of Mus musculus with 6 samples.

Results

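Toll-like receptors are membrane proteins of macrophages and other cells that bind conserved microbial molecules and nucleic acids, and Cd14 is a surface co-receptor that hands lipopolysaccharide to Toll-like receptor 4. Expression of 10 genes, the receptors Tlr1 to Tlr9 and Cd14, was compared between monocyte-derived Kupffer cells (mKC) and embryonic Kupffer cells (eKC) from the same livers. The genes were chosen as a family by their Ensembl identifiers, with earlier results of these data known. All 10 were present among the 27835 features of the table, each feature being 1 Ensembl mouse gene. Kupffer cells are the resident macrophages of the liver sinusoids, where they meet microbial products carried in portal blood. None of the 10 genes passed the threshold of an adjusted p under 0.05 in the fit across all features. Tlr9, a receptor for DNA rich in unmethylated CpG, lay closest to it and was 1.62-fold higher in mKC.

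Receptors of this family signal through the adaptor MyD88, with the exception of Tlr3, which uses TRIF. Tlr4 can use both. Tlr1, Tlr2, Tlr4, Tlr5 and Tlr6 act at the cell surface and bind bacterial lipoproteins, lipopolysaccharide or flagellin. Tlr3, Tlr7, Tlr8 and Tlr9 act in endosomes, bind nucleic acids and need the chaperone UNC93B1 to get there.

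The samples came from 3 C57Bl/6 mice with the genotype CX3CR1-CreERT+/+ Stopfl/fl tdTomato. In these mice CreERT, an inducible Cre recombinase made under the control of Cx3cr1, can switch on the red reporter tdTomato. Whether and when CreERT was induced is not described here, so the time at which tdTomato was switched on was not analysed. All 3 mice had received sRBC, a treatment that the labels do not spell out, so both groups come from the same treated mice and no untreated group was analysed here. Each mouse gave 1 mKC sample, sorted as GFP+ tdTomato- cells, and 1 eKC sample, sorted as GFP- tdTomato+ cells, in which the reporter had thus been switched on, and both gates also required CD45+, CD11b- and F4/80+. From each sort of 50000 cells, 2 ng of RNA was labelled for an Affymetrix Mouse Gene 2.0 ST array. The source of GFP and the ages were not given in the sources used here. Only the gate tells the origins apart, and other properties that differ between the gates cannot be told apart from origin.

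Array medians lay between 5.21 and 5.28 on the log2 scale. The first principal component parted the 3 mKC arrays from the 3 eKC arrays. On the second the eKC array of animal 2 stood apart, with a score of 25.6 against -12.9 and -12.4 for the other eKC arrays, and on the third the mKC array of animal 2, with -24.4 against 10.8 and 13.2. Differences without animal 2 are therefore given for each gene below. The table pairs no identifier with a symbol, and the reference table held an Ensembl identifier for 0 of its 49997 genes, so defining markers of Kupffer cells or of other cell types were not analysed here. In sorted bulk samples, a different number of cells expressing a gene, other cell types within a gate included, cannot be told apart from different RNA per cell. Probe sets differ in brightness for reasons of sequence, so levels are compared between the groups within a gene and not between genes.

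Among the nucleic acid receptors, the Tlr9 (ENSMUSG00000045322) level was 9.49, 9.36 and 9.67 log2 units in the mKC arrays of animals 1, 2 and 3, and 8.83, 8.91 and 8.68 in their eKC arrays. Every mKC array lay above every eKC array, and the gap between the lowest mKC and the highest eKC array was wider than the spread within either group. Group means were 9.51 ± 0.16 in mKC and 8.81 ± 0.12 in eKC (SD, n = 3). The mean difference in Tlr9 was 0.70 ± 0.13 (SE), with a 95% interval of 0.39 to 1.01, an unadjusted p of 0.0013 and an adjusted p of 0.062 in limma. It was 0.66, 0.45 and 0.99 in animals 1, 2 and 3, so the animals differed in its size but not in its sign. Of all 27835 features, 1.19% had a higher difference. Without animal 2 the Tlr9 difference was 0.83 with an adjusted p of 0.070 in limma.

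Tlr7 (ENSMUSG00000044583), a receptor for single-stranded RNA, stood at 10.82, 10.76 and 10.85 in mKC and at 10.59, 10.59 and 10.57 in eKC. The eKC arrays were close together, with an SD of 0.011, and all 3 mKC arrays were above them. Its difference was 0.23 ± 0.091 (SE), or 1.17-fold, with a 95% interval of 0.0096 to 0.45 and an adjusted p of 0.40 in limma. Without animal 2 it was 0.25, with an interval of -0.021 to 0.53 that included 0. Tlr8 (ENSMUSG00000040522), the other RNA receptor of this pair and the immediate neighbour of Tlr7 on chromosome X with 0 annotated genes between them, had groups that overlapped. Its levels were 11.40, 11.57 and 11.61 in mKC against 11.63, 11.69 and 11.56 in eKC. The mKC array of animal 3 lay above its eKC array, which is the opposite sign to animals 1 and 2. Its mean difference was -0.10 ± 0.10 (SE), with a 95% interval of -0.35 to 0.14 and an adjusted p of 0.79 in limma. Without animals 1, 2 and 3 in turn the Tlr8 difference was -0.039, -0.093 and -0.18. Tlr3 (ENSMUSG00000031639), a receptor for double-stranded RNA, read 10.11, 10.23 and 10.26 in mKC and 10.45, 10.42 and 10.22 in eKC. Animals 1 and 2 were lower in mKC by more than the spread of the mKC arrays, whereas animal 3 was slightly higher. The Tlr3 difference was -0.17 ± 0.11 (SE), between -0.43 and 0.10 at 95% (limma, adjusted p of 0.66). It was -0.075, -0.15 and -0.27 without animals 1, 2 and 3 in turn.

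**Figure D1:**
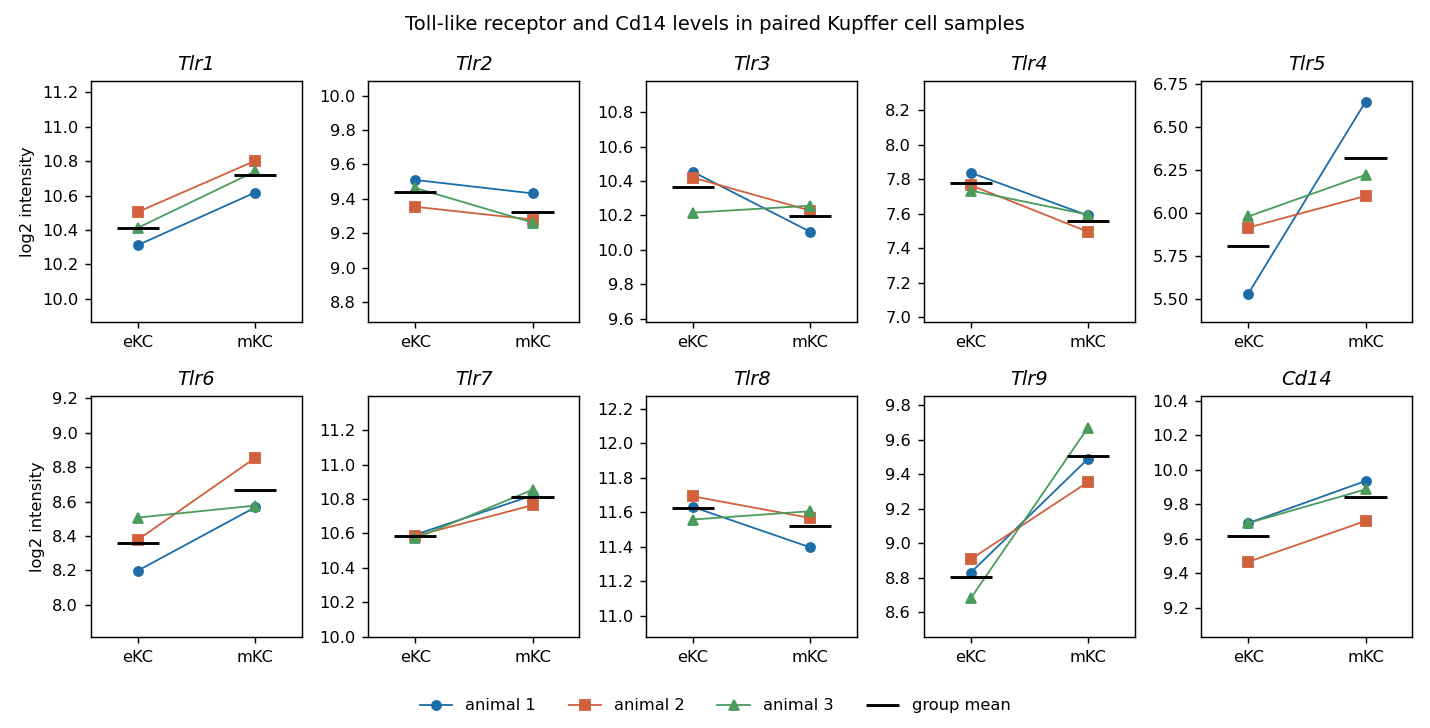
Log2 intensity (vertical axis, 1.4 log2 units high in every panel) of each gene in the eKC and mKC arrays, with a line joining the 2 arrays of an animal and a black bar at each group mean. The steepest line is that of Tlr5 in animal 1, Tlr6 in animal 2 and Tlr9 in animal 3, and lines of opposite slope appear for Tlr3 and Tlr8.

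At the cell surface, Tlr1 and Tlr6 each pair with Tlr2, Tlr1 for triacylated and Tlr6 for diacylated lipopeptides. Tlr1 (ENSMUSG00000044827) stood at 10.62, 10.80 and 10.74 in mKC and at 10.31, 10.50 and 10.41 in eKC, with no overlap. Its differences of 0.30, 0.30 and 0.33 in animals 1, 2 and 3 were close to equal. The mean was 0.31 ± 0.089 (SE), or 1.24-fold, with a 95% interval of 0.093 to 0.53 and an adjusted p of 0.24 in limma, and without animal 2 it was 0.32. Tlr6 (ENSMUSG00000051498) gave 8.57, 8.85 and 8.58 in mKC and 8.20, 8.38 and 8.51 in eKC. All mKC arrays were again the higher, but in animal 3 by only 0.070, against 0.37 and 0.47 in animals 1 and 2. Its mean difference was 0.30 ± 0.11 (SE), or 1.23-fold, with a 95% interval of 0.031 to 0.58 and an adjusted p of 0.37 in limma. Without animal 2 it was 0.22, with an interval that included 0. Tlr1 and Tlr6 are neighbours on chromosome 5 with 0 annotated genes between them and are close in sequence, and whether probes of one also bound transcripts of the other was not tested.

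Their common partner Tlr2 (ENSMUSG00000027995) read 9.43, 9.28 and 9.26 in mKC and 9.51, 9.35 and 9.46 in eKC. Within each animal the mKC array was the lower, with differences of -0.078, -0.074 and -0.20, yet the groups overlapped. The mean difference of Tlr2 was -0.12 ± 0.092 (SE), with a 95% interval of -0.34 to 0.11 and an adjusted p of 0.72 in limma. It was -0.14 without animal 2 and -0.076 without animal 3.

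Tlr4 (ENSMUSG00000039005), the receptor for lipopolysaccharide, was the single member with a lower level in every mKC array than in any eKC array. It stood at 7.59, 7.49 and 7.59 in mKC and at 7.84, 7.77 and 7.73 in eKC. The difference was -0.22 ± 0.092 (SE), or 1.16-fold, with a 95% interval of -0.44 to 0.0037 and an adjusted p of 0.43 in limma. Without animal 2 it was -0.19. Its co-receptor Cd14 (ENSMUSG00000051439) lay on the other side, at 9.93, 9.70 and 9.89 in mKC and 9.69, 9.47 and 9.69 in eKC. The mKC array of each animal was the higher, by 0.24, 0.24 and 0.20, and the groups did not overlap. For Cd14 the mean difference was 0.23 ± 0.089 (SE), or 1.17-fold, with a 95% interval of 0.0085 to 0.44 and an adjusted p of 0.40 in limma. Without animal 2 it was 0.22, with an interval of -0.056 to 0.50 that included 0.

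Tlr5 (ENSMUSG00000079164), the receptor for bacterial flagellin, was the member with the largest spread between animals. Its levels were 6.65, 6.10 and 6.22 in mKC and 5.53, 5.92 and 5.98 in eKC. Animal 1 held both the highest mKC and the lowest eKC array, and its difference of 1.11 was set against 0.18 and 0.24 in animals 2 and 3. The mean difference was 0.51 ± 0.19 (SE), or 1.43-fold, with a 95% interval of 0.045 to 0.98 and an adjusted p of 0.38 in limma. Without animal 1 it was 0.21, with an interval of -0.11 to 0.53, so animal 1 decides its size, and without animal 2 it was 0.68. Tlr5 was also the one member whose mean level lay below the upper quartile of all features, 7.41, and RMA compresses differences at low intensity.

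**Figure D2:**
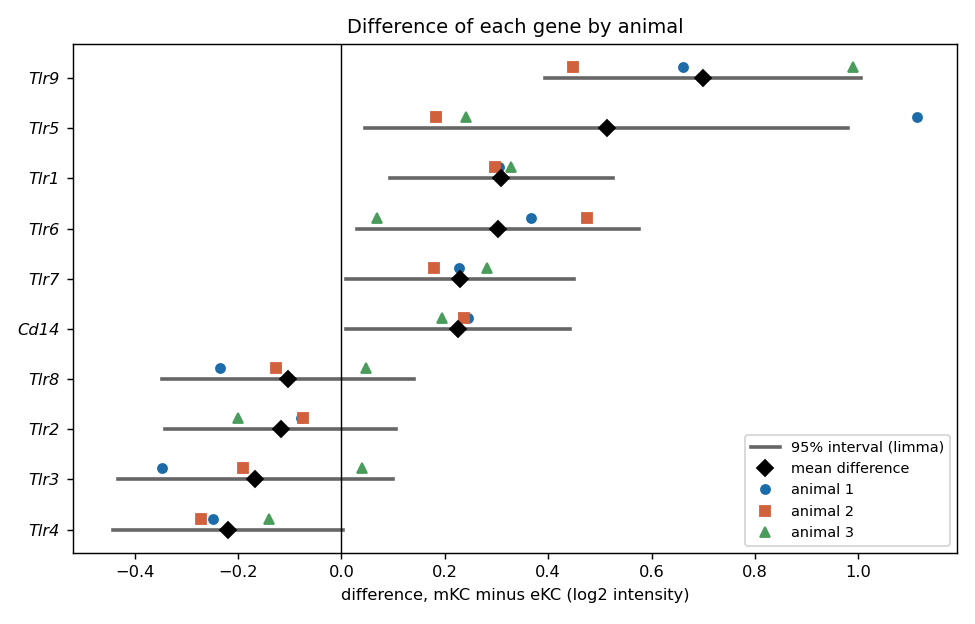
Difference between mKC and eKC of each gene (horizontal axis, log2 intensity), with the value of each animal as coloured symbols, the mean as a black diamond and the 95% interval of the limma fit as a bar. Intervals of 6 genes lie above 0, those of the other 4 include 0, and the symbols of Tlr1 and Cd14 nearly coincide while those of Tlr5, Tlr6 and Tlr9 spread out.

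Counted together, 6 of the 10 genes had a higher mean in mKC (Tlr1, Tlr5, Tlr6, Tlr7, Tlr9 and Cd14) and 4 a lower one (Tlr2, Tlr3, Tlr4 and Tlr8). A higher mean in mKC was found for 47.8% of all features and for 54.8% of those in the upper quartile of mean level. A count of 6 of 10 is near the latter share. At an adjusted p under 0.05 in limma 0 of 10 passed, where 1.82% of all features did. A count of 0 of 10 is near that share. At an unadjusted p under 0.05, 6 of 10 passed in limma, where 11.7% of all features did. All 6 were higher in mKC, a direction in which 6.33% of all features passed. With animal 1, 2 or 3 left out, which also lowers the residual degrees of freedom to 1, this count was 1, 3 and 3, where 8.31%, 12.4% and 9.8% of all features passed. No gene passed the adjusted threshold and none changed sign without any 1 animal, animal 2 included. The groups did not overlap for 7 of 10, against 17.7% of all features. Of these 7, 6 were higher in mKC, against 8.91% of all features, and 1 was lower, against 8.82%. The sign was the same in all 3 animals for 8 of 10, against 33%. Of the 10 genes, 9 lay in the upper quartile of mean level. Over all features of that quartile the shares were 2.83% for the adjusted p, 15% for the unadjusted p, 26.3% for groups without overlap and 43.5% for a common sign. By direction, 608 of its 6959 features passed the unadjusted p and were higher in mKC, and 434 were lower. Groups without overlap were higher in mKC for 1069 and lower for 762, so this quartile leaned towards mKC.

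The median difference over the 10 genes was 0.23, against -0.0079 over all features and 0.018 over the upper quartile. Their sizes ran from 0.10 to 0.70, and the smallest difference called among all features was 0.53, a size that only Tlr9 among them exceeded. For 9 of 10 genes the 95% interval lay wholly within a 2-fold change in either direction, and for Tlr9 it reached 2.01-fold. These intervals are those of single genes and are not widened for the number of genes.

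**Figure D3:**
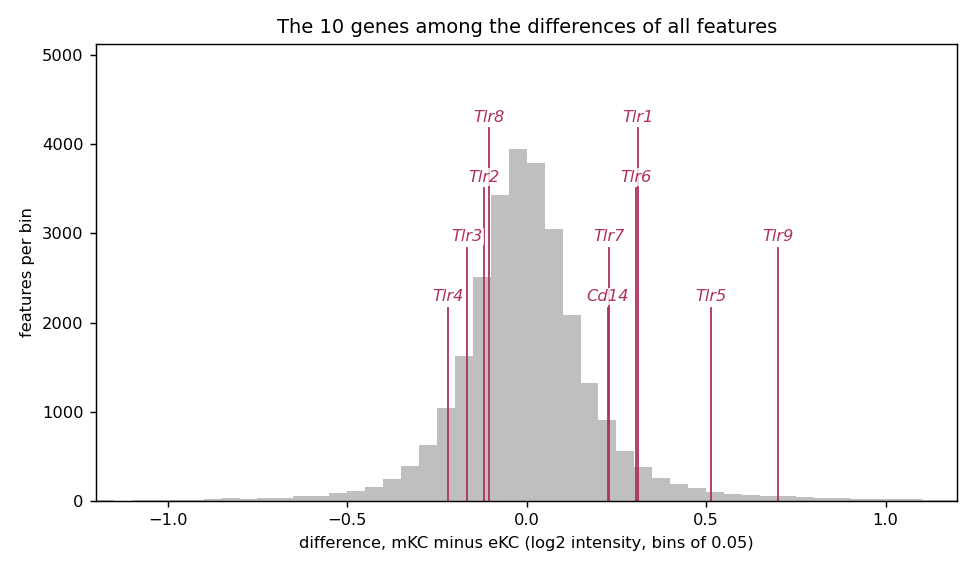
Number of features (vertical axis) by difference between mKC and eKC (horizontal axis, log2 intensity, cropped at 1.2 on either side), with a line at the difference of each of the 10 genes. Tlr9 and Tlr5 lie in the upper tail, Tlr1 and Tlr6 at its edge, and Tlr2 and Tlr8 within the bulk of the features.

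A difference between genes of the same array is free of any shift common to the array, so partners were also set against each other, with pairs picked with their values known. From eKC to mKC, the log2 difference Tlr1 minus Tlr2 was higher by 0.43 ± 0.088 (SD, n = 3) and Tlr6 minus Tlr2 by 0.42 ± 0.14. Cd14 minus Tlr4 was higher by 0.44 ± 0.096, and Tlr7 minus Tlr8 by 0.33 ± 0.12. For Tlr9 minus Tlr7 the value was 0.47 ± 0.22. Each of these 5 differences had 1 sign in all 3 animals. For Tlr1 or Tlr6 against Tlr2 and for Cd14 against Tlr4, that follows from the signs of the single genes given above. For each of the 5, an exact two-sided sign-flip permutation test gave p = 0.25, the smallest that 3 pairs allow, so none can pass 0.05. Tlr1 minus Tlr6 gave 0.0059 ± 0.23, with animal 3 opposite in sign to the others.

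Promoter windows from 250 bases before to 50 bases after an annotated start site were available from RefSeq (GRCm38.p6) for 7 of the 10 genes, in 9 windows. Those of Tlr9, Tlr1 and Tlr6 are shown because these genes had higher levels in every mKC array, the first with the largest difference and the others as neighbours. Tlr5 also had higher levels in every mKC array, and its window is described below but not printed. Sequences run 5′ to 3′ on the gene's strand. Capitals mark matches, on either strand, to any of 5 motifs. These are the NF-kB type motif (letters GGGA, then any 4 bases, then CC), the PU.1 type motif GAGGAA, named for a factor of macrophage development, the interferon response type motif (GAAA, then any 2 bases, then GAAA), the AP-1 type motif TGANTCA and the TATA box TATAAA. In these windows no match overlapped a match to another motif.
Tlr9, chr9:106222348-106222647, plus strand: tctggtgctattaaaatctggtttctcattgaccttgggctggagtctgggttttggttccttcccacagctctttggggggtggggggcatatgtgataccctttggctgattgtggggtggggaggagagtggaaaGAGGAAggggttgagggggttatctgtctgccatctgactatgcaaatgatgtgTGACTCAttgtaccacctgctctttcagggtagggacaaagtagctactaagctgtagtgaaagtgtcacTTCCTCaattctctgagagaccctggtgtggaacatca
Tlr1, chr5:64933509-64933808, minus strand: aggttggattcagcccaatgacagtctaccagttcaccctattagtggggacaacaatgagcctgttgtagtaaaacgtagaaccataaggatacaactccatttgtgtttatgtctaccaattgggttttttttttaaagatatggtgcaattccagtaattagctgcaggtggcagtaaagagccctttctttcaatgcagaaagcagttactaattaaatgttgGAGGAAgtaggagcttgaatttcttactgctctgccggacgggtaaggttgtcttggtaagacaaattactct
Tlr6, chr5:64959999-64960298, minus strand: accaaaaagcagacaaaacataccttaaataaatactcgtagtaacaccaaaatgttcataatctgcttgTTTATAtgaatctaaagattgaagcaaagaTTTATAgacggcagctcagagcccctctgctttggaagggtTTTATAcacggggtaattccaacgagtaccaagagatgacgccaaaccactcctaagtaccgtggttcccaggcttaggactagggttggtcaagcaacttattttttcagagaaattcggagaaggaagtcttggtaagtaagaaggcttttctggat
Tlr6, chr5:64959117-64959416, minus strand: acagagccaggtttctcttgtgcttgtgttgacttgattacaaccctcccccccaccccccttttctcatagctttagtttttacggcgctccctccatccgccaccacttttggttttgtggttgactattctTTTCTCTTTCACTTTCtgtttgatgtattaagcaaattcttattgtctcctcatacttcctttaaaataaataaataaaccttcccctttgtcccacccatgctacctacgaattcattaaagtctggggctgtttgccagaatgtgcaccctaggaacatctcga

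The Tlr9 window held 2 PU.1 type matches, 1 on the gene's strand from base -112 and 1 on the opposite strand from base 13, and 1 AP-1 type match from base -58, counting the start site as base 1. The first Tlr1 window held 1 PU.1 type match from base -23. A further Tlr1 window, at chr5:64932650-64932949, held 0 matches to the 5 motifs. The upstream Tlr6 window had 3 TATA box matches on the opposite strand, and its other window had 2 overlapping interferon response type matches on the opposite strand, from bases -116 and -110. Among the other windows, the NF-kB type motif matched 2 times in that of Tlr2 and 3 times in that of Tlr3. It matched 1 time in that of Tlr5, a gene also higher in every mKC array. The Tlr1, Tlr6, Tlr8 and Tlr9 windows held no NF-kB type match. The Tlr8 window had 1 PU.1 type match and 2 overlapping TATA box matches. Over all 32851 promoter windows of the table, 28.3% held the PU.1 type motif, 20.7% the NF-kB type, 13.6% the TATA box, 7.81% the AP-1 type and 3.44% the interferon response type. Matches describe letters only, and the arrays measured neither binding nor promoter activity.

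**Figure D4:**
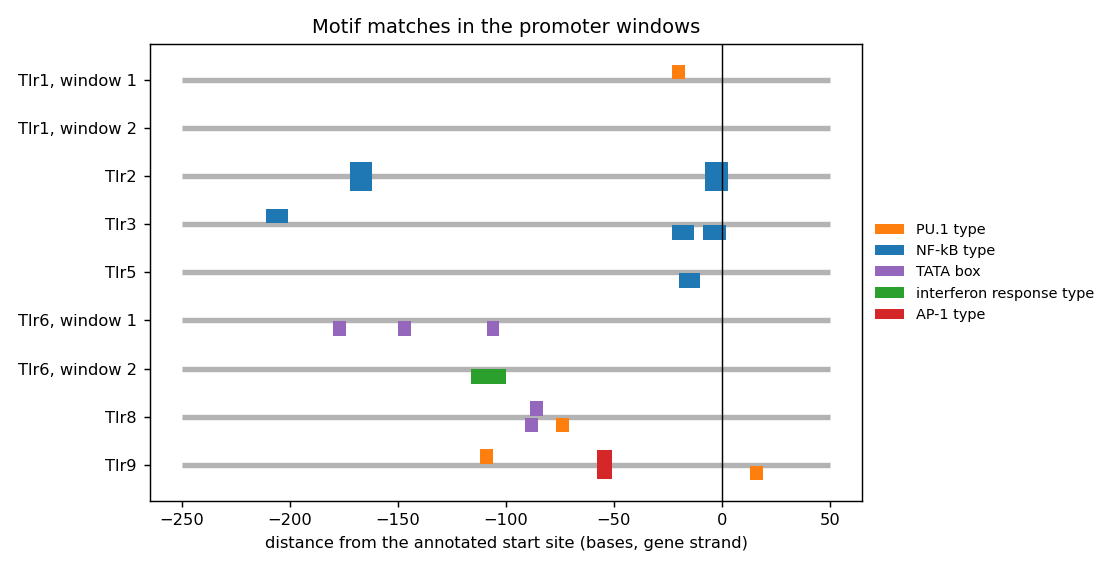
Motif matches in the 9 promoter windows (rows), by distance from the annotated start site in bases on the gene's strand (horizontal axis). Blocks above a line are matches on the gene's strand, below it on the opposite strand, and blocks across it match the motif on both strands. NF-kB type matches appear in the Tlr2, Tlr3 and Tlr5 rows, and the Tlr9 row has both PU.1 type matches and the single AP-1 type match.

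Whether Tlr9 passed the threshold turned on the settings of the fit. Its adjusted p in limma was under 0.05 under 7 of 11 alternatives and ranged from 0.017 to 0.25, while its difference stayed between 0.55 and 0.83. The lowest values came from an intensity trend with robust estimation and from the fit without pairing by animal, both 0.017 after rounding. With the animal as a random effect it was 0.018. With any 1 animal left out it did not pass, the adjusted p being 0.20, 0.070 and 0.25 without animals 1, 2 and 3. Tlr1 passed under 1 alternative, the intensity trend, with an adjusted p of 0.031. The other 8 genes passed under none of the 11 alternatives run, with adjusted p-values in limma from 0.10 to 0.99.

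**Figure D5:**
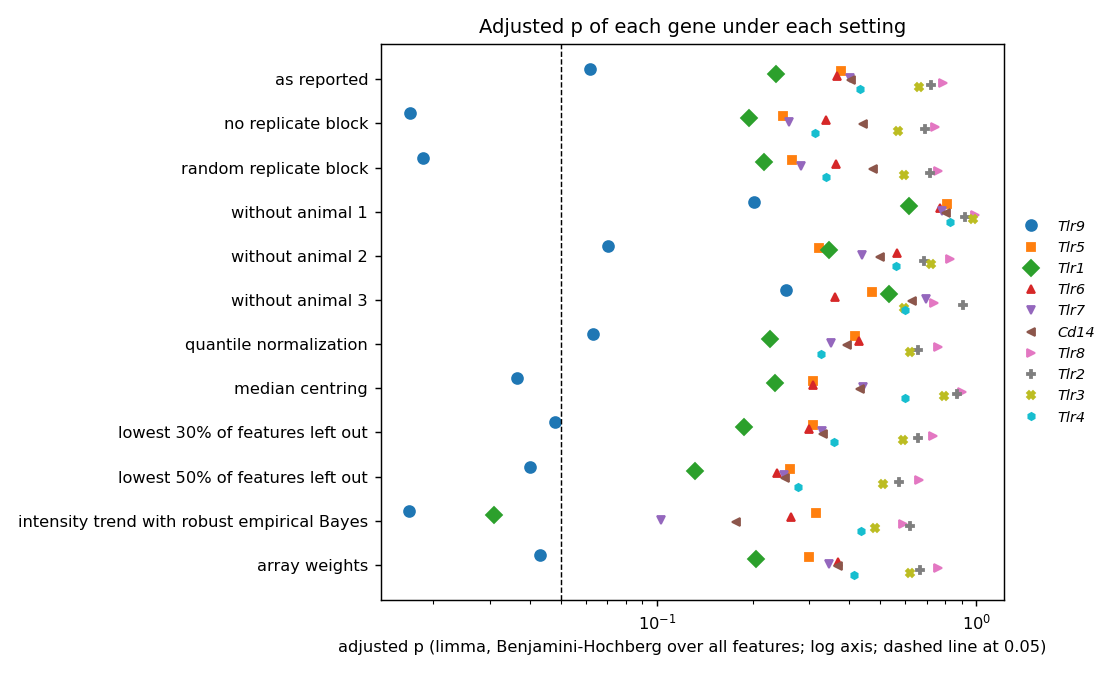
Adjusted p of each gene in limma (horizontal axis, log scale) in the fit as reported and under the 11 alternatives (rows), with a dashed line at 0.05. Tlr9 lies left of the line in 7 of 11 alternatives and Tlr1 in 1, and the other genes lie to its right in all rows.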

How the data were processed

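Total RNA of 6 sorted samples was measured on single-colour arrays. The deposited table holds 1 value per Ensembl gene and array. The authors made these log2 intensities with RMA, per the submitters' processing notes, a method that corrects background, normalizes arrays by quantiles and summarises probes. The base of the log was read as 2 from the range of the deposited values, 2.09 to 14.2, since neither it nor the RMA version or probe definition was stated. The table carries no detection call, and for arrays their number limits the precision.

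Differences (mKC minus eKC) were estimated by lmFit and eBayes of limma 3.58.1 (R 4.3.3) over all 27835 features and 6 arrays, with the animal as a block, as the series' design text describes pairs. Tests were two-sided, with Benjamini-Hochberg adjustment over all features, a threshold of 0.05 and no intensity filter. Each feature had 2 residual degrees of freedom, to which eBayes added 4.21. Simulated data were used to test the script. In these, 200 of 27835 features were changed. The share of changed features recovered was 1.42% at a true log2 difference of 0.5, 75.9% at 1 and 99% at 2. Differences of 0.5 were thus rarely recovered in the simulated data. These shares depend on the number of changed features and need not hold for the measured arrays. Same-animal arrays deviated from their group means with correlations of -0.032, 0.026 and -0.019, so the pairing comes from the animals and not from the values. All members are named. Members and lists were chosen with earlier results of these data known. A planned list of pathway genes, the cell type markers, protein comparisons and the search for genes of like pattern needed symbols or sequences that were not used here. Alternatives changed the pairing, the animals included, the normalization, the intensity filter, the variance model, the array weights or the threshold. Promoter windows were searched for 5 motifs in Python 3.11.15.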

Additional observations from a re-analysis of the deposited data

How the results depend on the processing

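Of 110 tests of 1 gene under 1 alternative, 102 kept their side of the threshold, 8 passed it where the reported fit did not, and 0 turned direction. Of all features 506 passed, against 171 to 369 with 1 animal left out (252 without animal 1 and 171 without animal 3) and 236 where a log2 difference of at least 1 was also required, which by construction leaves fewer. The count of genes at an unadjusted p under 0.05 (6 in limma) was 1 to 3 with 1 animal left out, an alternative chosen after seeing the data, and the count with groups that do not overlap (7, against 17.7% of all features) was 8, 8 and 9 without animals 1, 2 and 3, against 36.3%, 44.1% and 40.6% of all features, as 2 arrays a group overlap less often by construction. No gene of the 10 passed as reported. In fits that also called more features in all, 1 passed without the replicate block (608 of all features), with the animal as a random effect (546), with median centring (631), with the lowest 30% or 50% of features left out (574 and 583), with array weights (588) or at an adjusted p under 0.1 (745), and 2 with an intensity trend (705). Quantile normalization gave 0 (473). Except for Tlr1 under the trend (0.31, limma adjusted p of 0.031), the gene that passed was Tlr9. Its difference was 0.70 without the replicate block, with the random effect, with either filter and with the trend (limma adjusted p of 0.017, 0.018, 0.048, 0.040 and 0.017), 0.72 with median centring (0.036) and 0.73 with array weights (0.043). The filters test fewer features. Without the replicate block or with the random effect, 4 residual degrees of freedom remain in place of 2. The cause of each change was not tested. With an animal left out, 1 residual degree of freedom remains in place of 2. No alternative scaling moved the median of all features by over 0.1. Signal over background is not in the table, so whether the dimmest gene, Tlr5, was detected in a given array was not analysed here.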
